A study of Mus musculus with 6 samples.

Results

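The cytochrome P450 genes that act on foreign compounds, fatty acids and steroids were followed in liver RNA of WT and *Txndc5*-deficient (KO) mice. A gene was taken as a member when its symbol in the deposited gene table was Cyp, a number, a single letter and a number. The bile acid, cholesterol and retinoic acid enzymes *Cyp7a1*, *Cyp7b1*, *Cyp8b1*, *Cyp27a1*, *Cyp51*, *Cyp26a1* and *Cyp26b1* were left out, and so were 7 symbols of another form, among them *Cyp4a12a* and *Cyp4a12b*. This gave 72 members of the 16123 genes in the table. The rule uses symbols and no expression value.

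The RNAseq data came from 6 libraries, 3 per genotype, and each library was made from a pool of 3 mice. All mice were males of 2 months that received a purified diet for 4 weeks and were fasted for 16 h. The WT mice were labelled C57BL/6Rj. The KO mice were labelled C57BL/6JRj-Txndc5<em2Mdnp>/Ciba and carried a CRISPR deletion of exon 3 of *Txndc5*, and the line goes back to 1 founder male. The methods state that heterozygous parents gave rise to mice of both genotypes. No treatment other than diet and fasting was given to either group. TXNDC5 is a protein disulfide isomerase of the endoplasmic reticulum, the compartment whose membrane holds most P450s.

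P450s are haem proteins that insert an oxygen atom into their substrates with electrons passed on by NADPH cytochrome P450 reductase or, in mitochondria, by ferredoxin. Liver is their main site. Families CYP1, CYP2 and CYP3 oxidise drugs, toxins and steroids and are switched on by the aryl hydrocarbon receptor, CAR and PXR, whereas CYP4 enzymes hydroxylate fatty acids and leukotrienes. The mouse *Cyp4a* genes are classical targets of PPARα, the receptor that drives the fasting programme of the liver. Several *Cyp2c*, *Cyp2d* and *Cyp4a* genes differ between male and female mice through growth hormone.

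The table holds 1 value per gene and genotype, in reads divided by a size factor and combined over the 3 libraries, and it shows no spread between pools. The log2 ratio of KO over WT used here was calculated from these 2 values and is pulled toward 0. As an example, *Cyp27b1*, which activates vitamin D, had a single read in a WT library and none elsewhere, yet its values were 0.139 in WT and 0.133 in KO. For genes with few reads, the reads of each library were recovered from the mean of the 2 values, as explained under the processing. The recovered libraries could not be matched to pool numbers and are called KO-A, KO-B, KO-C, WT-A, WT-B and WT-C, in the order of their size factors within a genotype. Nothing shows that the pools share no cage or litter, so *p* values measure the spread between these pools only.

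The targeted gene *Txndc5* was far lower in KO (90.8) than in WT (2697), with a log2 ratio of −4.89, in the direction of the labels. The libraries held 44040160 to 46050030 clean reads, of which 91.63 to 93.66% were mapped. The 10 hepatocyte markers were all well above the level limit used below, and 1 of them, *Apob*, had a log2 ratio past the limit in the table of genotype values, at −0.52. Of 6 measured red blood cell markers, 4 were above a log2 ratio of 0.5 (median 0.67), and the list summed to 198656 normalized reads per kilobase in WT and 301038 in KO. Above the limit were also 2 of 8 Kupffer cell, 2 of 7 stellate cell and 1 of 5 cholangiocyte markers, but none of 7 endothelial markers. Of all genes with a mean of at least 10, 2.48% were above it. Other markers of these lists were lower in KO, such as *Lrat* (−0.44), *Krt7* (−0.32) and *Clec4f* (−0.05). The reads per library of the Kupffer cell marker *Marco* and the cholangiocyte marker *Epcam*, both above the limit, overlapped between the genotypes. Of the 2 lymphocyte markers whose mean reached 10, *Ptprc* was below the limit at −0.65, and its reads per library overlapped between the genotypes. The summed normalized reads of all 6 lymphocyte markers were 60.2, 43.4 and 68.9 in KO-A, KO-B and KO-C. They were 75.1, 80.8 and 114 in WT-A, WT-B and WT-C, so the sum was lower in every KO library. Of single genes with recovered normalized reads that sum to at least 60, 2.42% had every KO library below every WT library. The reads of *Cd79a* overlapped between the genotypes as well, and *Cd3g* went the other way, with a log2 ratio of 0.58. The summed normalized reads of the 5 neutrophil markers were 41.9, 34.8 and 56.5 in KO-A, KO-B and KO-C. They were 31.0, 37.5 and 35.5 in WT-A, WT-B and WT-C, so the genotypes overlapped. None of 5 kidney tubule markers was in the table. The 5 pancreas acinus markers with recovered reads summed to 1.52, 0 and 42.9 normalized reads in KO-A, KO-B and KO-C. Their sums were 0, 1.14 and 8.56 in WT-A, WT-B and WT-C, so KO-C alone stood out. The part of these cells in the P450 results was not tested, and in bulk RNA fewer cells of a type cannot be told apart from less RNA per cell.

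Most of the P450 message came from a few genes. Of the 72 members, 30 had a mean of both genotype values of at least 1000, 9 lay between 100 and 1000, 13 between 10 and 100, and 20 under 10. The members summed to 708053 normalized reads in WT and 767284 in KO, which was 3.58% and 4.14% of the sum over all genes. That sum was itself lower in KO (18532558) than in WT (19773891), so part of the rise in share came from the smaller total. The 3 members with the highest level per kilobase gave 59.0% of the P450 reads in WT and 59.6% in KO, and the top 10 by that measure gave 89.7% and 90.3%. The members' values summed to 59232 normalized reads more in KO than in WT, and *Cyp2e1*, *Cyp4a10* and *Cyp4a14* alone differed by 76079, so the other members together were lower in KO.

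Per kilobase of gene length, *Cyp2e1*, which oxidises ethanol and acetone, was the most abundant member and ranked 13 of all genes. Its level was 118677 normalized reads per kilobase in WT and 136641 in KO (log2 ratio 0.20). *Cyp4a10*, a fatty acid hydroxylase, followed with 63992 and 70578 (log2 ratio 0.14). *Cyp2d9*, a steroid hydroxylase of male mice, had 45471 and 41986 (log2 ratio −0.12), and *Cyp4a14* had 28932 and 41188. Of the 10 most abundant members per kilobase, *Cyp4a14* was the only one with a log2 ratio past 0.5 in either direction. *Cyp2d26*, *Cyp2f2*, *Cyp2d10*, *Cyp3a11*, *Cyp2a12* and *Cyp2c29*, which complete the 10, had log2 ratios from −0.23 in *Cyp2d10* to 0.01 in *Cyp2c29*. Of all members, 7 were among the 100 genes with the highest level per kilobase. The order of these levels has no error, because each genotype has 1 value.

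**Figure D1:**
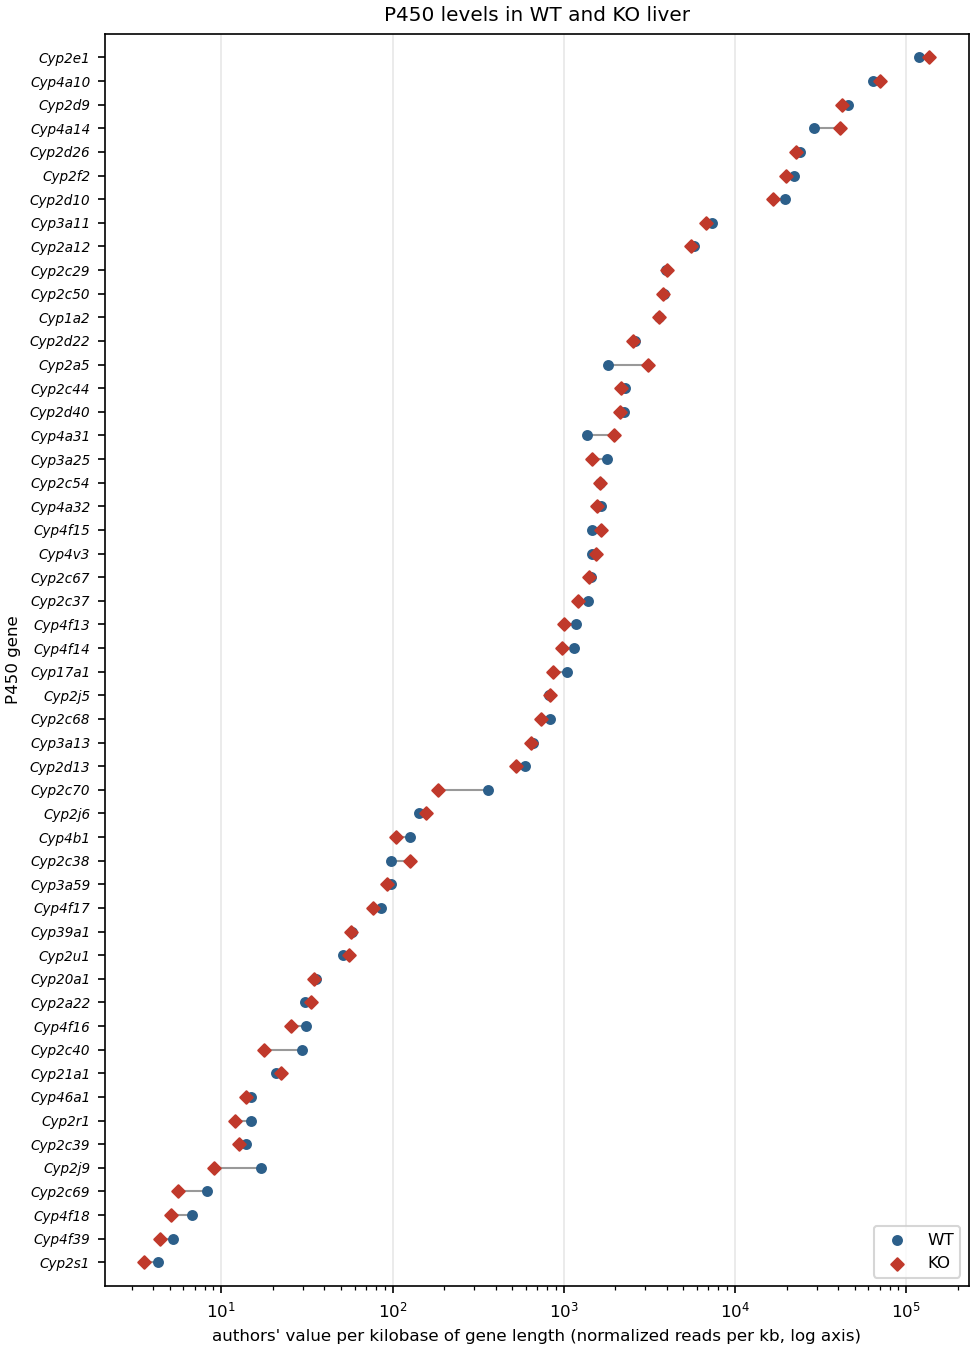
Level of the 52 members whose mean value reached 10, as the authors' genotype value per kilobase of gene length on a log axis, in WT (blue circles) and KO (red diamonds), with a grey line joining the values of a gene. The values of most genes lie close together, and the widest gaps are those of *Cyp2c70*, *Cyp2j9*, *Cyp2a5* and *Cyp2c40*.

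Between the genotypes, most P450s had similar values. A log2 ratio beyond 0.5 in either direction was taken as the limit, and 52 members had a mean of both values of at least 10. Of these, 3 were above the limit (5.77%), against 2.48% of the 11367 genes of that level in the whole table. Another 4 were below it (7.69%), against 7.9% of all genes, and 45 lay between. Where the mean had to reach 100, 3 members were above the limit and 1 was below, against 1.87% and 3.99% of the 7063 genes of that level. The median log2 ratio of the 52 members was −0.07 and that of all genes −0.05. A negative log2 ratio was seen in 37 members and a positive one in 15, and 57.7% of all genes were negative. Centred on the median of all genes, 30 members were negative and 22 positive. These are descriptions of 1 value per genotype with no replicate check.

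The 3 members with a higher value in KO were *Cyp2a5*, *Cyp4a31* and *Cyp4a14*. *Cyp2a5*, which hydroxylates coumarin and nicotine, had the highest log2 ratio of the 52 members, with 3162 in WT and 5393 in KO (1.71-fold, log2 ratio 0.77). *Cyp4a14* went from 72416 to 103093 (1.42-fold, log2 ratio 0.51) and *Cyp4a31* from 3388 to 4840 (1.43-fold, log2 ratio 0.51), so both lay just past the limit. The 4 members with a lower value in KO were *Cyp2c70*, *Cyp2j9*, *Cyp2c40* and *Cyp2c69*. *Cyp2c70*, which makes the muricholic acids of mouse bile, had 619 in WT and 317 in KO (log2 ratio −0.97). *Cyp2j9* had 33.1 and 17.5 (log2 ratio −0.91), *Cyp2c40* had 53.5 and 32.2 (log2 ratio −0.73), and *Cyp2c69* had 14.6 and 9.84 (log2 ratio −0.57). No member of this level reached a log2 ratio of 1 in either direction. Just inside the limit lay *Cyp4f18* at −0.41 and *Cyp2c38* at 0.37.

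**Figure D2:**
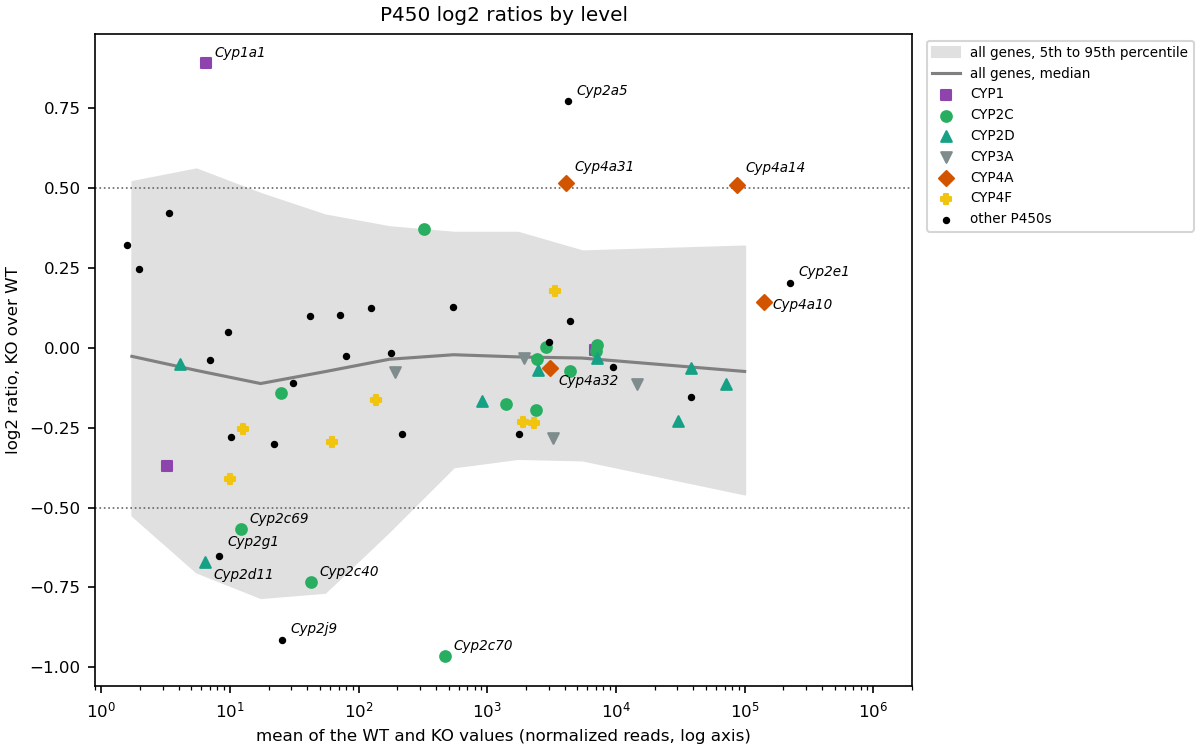
Log2 ratio of the genotype values, KO over WT, against the mean of the 2 values (log axis), for the members whose mean reached 1. Symbols mark families, the grey band spans percentiles 5 to 95 of all genes in classes of mean value, the grey line is their median, and dotted lines mark the limit of 0.5. *Cyp2a5*, *Cyp4a14*, *Cyp4a31*, *Cyp2j9*, *Cyp2c70* and *Cyp1a1* lie clearly outside the band, and *Cyp2e1* and *Cyp4a10* lie to the right of its end.

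These genes sit in clusters of close relatives, where reads can be assigned to the wrong copy. *Cyp2a5* (NCBI Gene 13087) lies on chromosome 7 from 26835305 to 26843548, plus strand, in the GENCODE annotation of build GRCm38. *Cyp4a14* (13119, from 115486200 to 115496142, minus strand) and *Cyp4a31* (666168, from 115563649 to 115579015, plus strand) lie on chromosome 4, and so does *Cyp2j9* (74519, from 96568429 to 96591578, minus strand). *Cyp2c70* (226105, from 40153353 to 40187333), *Cyp2c40* (13099, from 39767071 to 39812814) and *Cyp2c69* (100043108, from 39842814 to 39886799) lie on the minus strand of chromosome 19. In the longest coding transcript, no stretch of 100 bases of *Cyp2c70*, *Cyp2j9* or *Cyp4a14* was found in a transcript of another gene. The share was 8.22% in *Cyp4a31* and 14.4% in *Cyp2a5*, whose closest partner was *Cyp2a4*. *Cyp2c40* shared 44.1% and *Cyp2c69* 36.3% of their stretches, mostly with each other, so the values of these 2 genes are uncertain and may not be independent. The far more abundant *Cyp2c68* (mean value 1400) shared 16.7% of its stretches with *Cyp2c40*, and *Cyp2c67* (2418) shared 14.3% with *Cyp2c69*. Over all members, 31 shared no stretch and 11 shared over 10%.

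The bases before the transcription start were read from the RefSeq promoter table on GRCm38.p6 for the 4 members with the widest log2 ratios among those whose mean value reached 10 and that have an entry there. The region of *Cyp2a5* is chr7:26835089-26835338 on the plus strand, that of *Cyp2c70* chr19:40187287-40187536, that of *Cyp2j9* chr4:96591486-96591735 and that of *Cyp2c40* chr19:39812815-39813064, all 3 on the minus strand. Each is printed 5′ to 3′ up to the base before the start. Capitals mark, on either strand, the TATA box TATAAA, the nuclear receptor half-site AGGTCA and the core GCGTG bound by the aryl hydrocarbon receptor. TTATGTAA, CACGTG and TTCNNNGAA were also searched and did not occur in these 4.
Cyp2a5: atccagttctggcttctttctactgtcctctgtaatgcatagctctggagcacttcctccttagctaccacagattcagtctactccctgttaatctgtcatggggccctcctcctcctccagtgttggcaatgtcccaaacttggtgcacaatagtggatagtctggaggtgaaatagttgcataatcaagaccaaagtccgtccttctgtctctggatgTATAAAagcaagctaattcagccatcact
Cyp2c70: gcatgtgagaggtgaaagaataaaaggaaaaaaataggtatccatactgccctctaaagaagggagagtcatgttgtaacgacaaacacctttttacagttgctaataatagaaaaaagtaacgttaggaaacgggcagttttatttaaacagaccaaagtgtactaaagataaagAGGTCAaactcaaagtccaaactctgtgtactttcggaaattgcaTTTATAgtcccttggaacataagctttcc
Cyp2j9: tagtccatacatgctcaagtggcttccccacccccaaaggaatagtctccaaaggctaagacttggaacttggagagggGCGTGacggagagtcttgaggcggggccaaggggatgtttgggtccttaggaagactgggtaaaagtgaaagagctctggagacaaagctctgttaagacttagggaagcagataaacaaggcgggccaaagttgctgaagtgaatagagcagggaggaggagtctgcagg
Cyp2c40: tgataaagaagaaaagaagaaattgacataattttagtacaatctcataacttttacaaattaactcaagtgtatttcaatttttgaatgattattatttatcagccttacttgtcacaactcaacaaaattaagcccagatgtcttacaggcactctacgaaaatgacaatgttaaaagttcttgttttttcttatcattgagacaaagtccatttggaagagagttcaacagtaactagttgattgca

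The word TATAAA lay from −29 to −24 in *Cyp2a5*, counted back from the start. *Cyp2c70* had it at the same positions but on the opposite strand, printed as TTTATA. *Cyp2c70* also had AGGTCA from −74 to −69, and *Cyp2j9* had GCGTG from −171 to −167. *Cyp2c40* had none of these words before its start. The GENCODE gene begins further upstream, so that the last 34 bases of the *Cyp2a5* stretch, 47 of *Cyp2c70* and 93 of *Cyp2j9* lie inside the gene in that annotation. In windows of 250 bases before to 50 after the start, TATAAA occurred in 25 of the 61 windows of the 55 members with an entry (41.0%) and in 13.6% of all 32851 windows. AGGTCA occurred in 16 member windows (26.2%) and in 16.3% of all, and GCGTG in 12 (19.7%) and in 32.4% of all. CACGTG occurred in 2 member windows (3.28%) and 7.15% of all, TTCNNNGAA in 2 (3.28%) and 8.30% of all, and TTATGTAA in 0 and 0.938% of all. Neighbouring P450s are copies of each other, so their windows are not independent, and a match says nothing of binding.

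Within the families, the direction was shared in some and mixed in others. All 6 measured *Cyp2d* genes had negative log2 ratios, from −0.23 in *Cyp2d10* to −0.03 in *Cyp2d22*, and so had all 4 measured *Cyp3a* genes, from −0.28 in *Cyp3a25* to −0.03 in *Cyp3a13*. None of these 10 genes passed the limit, and when the ratios were centred on the median of all genes 5 of the *Cyp2d* and 3 of the *Cyp3a* genes were still negative, while *Cyp2d22* and *Cyp3a13* turned positive. *Cyp3a11*, the main mouse relative of human CYP3A4, had 15040 in WT and 13903 in KO (log2 ratio −0.11). Of 7 measured *Cyp4f* genes, which inactivate leukotrienes and hydroxylate long fatty acids, 6 were negative with a median of −0.23, and *Cyp4f15* was positive at 0.18. The 12 measured *Cyp2c* genes had a median of −0.11 and ranged from −0.97 in *Cyp2c70* to 0.37 in *Cyp2c38*. The abundant epoxygenases *Cyp2c29* (7077 in WT and 7123 in KO) and *Cyp2c50* (6988 and 6941) differed little.

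The 4 *Cyp4a* members were not alike. *Cyp4a14* and *Cyp4a31* were past the limit, *Cyp4a10* had 134128 in WT and 147932 in KO (log2 ratio 0.14), and *Cyp4a32* had 3151 and 3012 (log2 ratio −0.06). Their sum was 213083 in WT and 258877 in KO. *Cyp4a10* shared 12.7% of its stretches of 100 bases with other genes and *Cyp4a32* shared 20.1%. Of 15 other PPARα targets, none passed the limit in either direction, 12 were positive and the median was 0.14. *Acot2*, a mitochondrial thioesterase, was the highest with 342 in WT and 470 in KO (log2 ratio 0.46). *Fgf21*, a fasting hormone of the liver, was the lowest at −0.36. *Ppara* itself had 3501 in WT and 4872 in KO. Its log2 ratio of 0.48 was the highest among the 20 transcription factors listed for hepatic P450 control.

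Among targets of CAR and PXR, the receptors for drugs and bile acids, *Cyp2a5* was the only P450 past the limit. The other 7 of the 8 measured P450s ranged from −0.28 in *Cyp3a25* to 0.01 in *Cyp2c29*, and the list had a median of −0.02. *Cyp2b10*, the usual marker of CAR activation, had 9 reads in all 6 libraries. Its normalized reads were 0.762, 2.9 and 3.39 in KO-A, KO-B and KO-C and 0, 0 and 2.45 in WT-A, WT-B and WT-C, so the genotypes overlapped. Of 13 measured targets that are not P450s, 2 were below the limit, the sulfotransferase *Sult1d1* (275 in WT and 151 in KO, log2 ratio −0.86) and the glutathione transferase *Gsta2* (74.9 and 45.1, log2 ratio −0.73), and none was above, although *Abcb1a* lay at the limit with 0.50. The reads of *Gsta2* per library were 34.3, 54.1 and 38.4 after normalization in KO-A, KO-B and KO-C and 44.1, 106 and 83.2 in WT-A, WT-B and WT-C, with overlap (*p* = 0.2 in the exact permutation test, n = 3 libraries each), and the adjusted *p* of limma was 0.999. *Nr1i3*, which encodes CAR, had a log2 ratio of 0.11 and *Nr1i2*, which encodes PXR, 0.19.

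*Cyp1a1* and *Cyp1a2* are both targets of the aryl hydrocarbon receptor. *Cyp1a2*, the abundant hepatic form that metabolises caffeine, had 6855 in WT and 6827 in KO (log2 ratio −0.01). *Cyp1a1* had few reads, and it falls outside the rule for named genes, so it was chosen after its values were seen. It had 11, 14 and 7 reads in KO-A, KO-B and KO-C and 4, 1 and 4 in WT-A, WT-B and WT-C. After normalization these were 8.38, 13.5 and 7.9 against 3.27, 1.14 and 4.89, and every KO library was above every WT library. The means were 9.93 ± 3.11 in KO and 3.1 ± 1.88 in WT (SD, n = 3 libraries; *p* = 0.1 in a two-sided exact permutation test, which is the smallest that 3 against 3 allow). Among genes with a sum of normalized reads of at least 20, 3.19% had all KO libraries above all WT libraries, and *Cyp1a1* was the only one of 19 such members. In limma with this lower limit the difference was 1.5 ± 0.516 on the log2 scale (SE), with an adjusted *p* of 0.999 after Benjamini-Hochberg adjustment. The other 3 measured targets of the receptor had log2 ratios of the genotype values of 0.28 (*Ugt1a6a*), −0.13 (*Nqo1*) and −0.33 (*Tiparp*), and *Ahr* had −0.14.

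The genes listed as electron donors or partners of P450s all lay inside the limit. *Por*, the reductase that feeds all microsomal P450s, had 33256 in WT and 35825 in KO (log2 ratio 0.11). The microsomal list of 7 genes ranged from −0.18 in *Cyb5a* to 0.15 in *Cyb5b*, with none past the limit. It also held *Cyb5b*, *Pgrmc1* and *Pgrmc2*, so not all of its genes are microsomal electron carriers. The 3 measured genes of the mitochondrial chain ranged from −0.36 in *Fdx1l* to 0.03 in *Fdx1*. Of the 20 transcription factors, *Cux2*, a repressor made mainly in female liver, was the only one past the limit (47.8 in WT and 25.1 in KO, log2 ratio −0.93). Its normalized reads were 23.6, 2.9 and 29.4 in KO-A, KO-B and KO-C and 43.3, 5.69 and 114 in WT-A, WT-B and WT-C, and the genotypes overlapped (KO 18.6 ± 13.9 and WT 54.2 ± 54.8, SD, n = 3 libraries; two-sided exact permutation test, *p* = 0.4). *Hnf4a* had a log2 ratio of 0.23, *Cebpa* −0.12 and *Stat5b* 0.02.

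**Figure D3:**
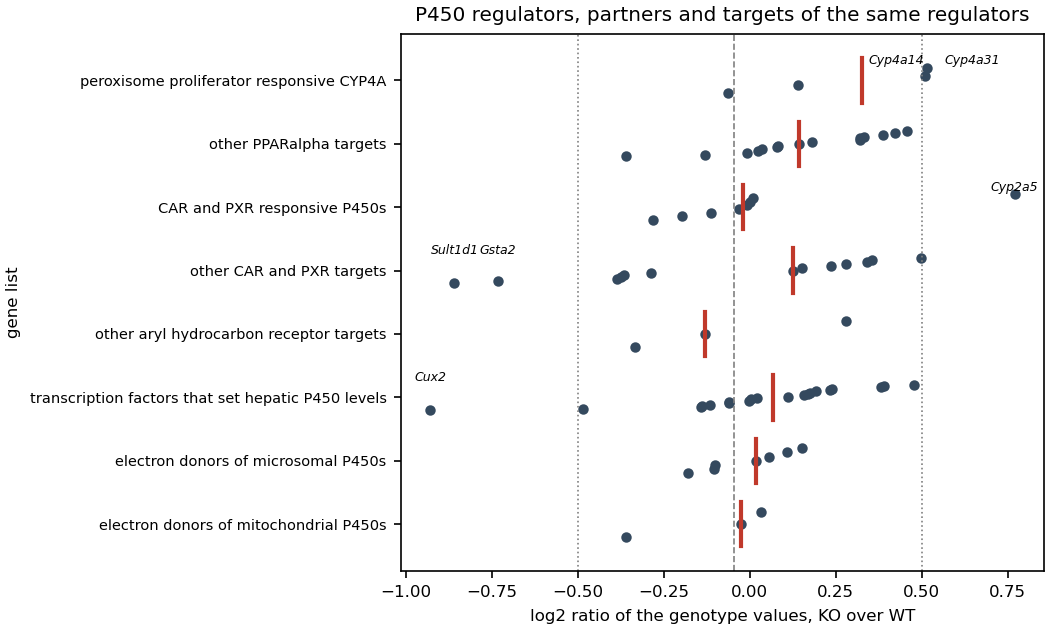
Log2 ratio of the genotype values, KO over WT, for genes whose mean value reached 10 in lists of P450s, their regulators, their electron donors and partners, and other targets of the same receptors. Each point is a gene, the red bar is the median of the list, the dashed line is the median of all genes and dotted lines mark the limit of 0.5. The points of the 2 electron donor lists lie between −0.36 and 0.15, and *Cyp2a5*, *Cyp4a14*, *Cyp4a31*, *Sult1d1*, *Gsta2* and *Cux2* are past the limit.

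P450s that differ between the sexes were read in these male livers. Of the female-predominant list, 4 genes reached a mean value of 10, all were negative and 2 were below the limit, *Cyp2c40* and *Cyp2c69*, the pair that shares sequence. The others were *Cyp17a1*, which makes androgen precursors, with 1924 in WT and 1594 in KO (log2 ratio −0.27), and *Cyp2c39* (log2 ratio −0.14). The female-predominant *Cyp2a4*, *Cyp2b9* and *Cyp3a44* were under a value of 10. Among 5 male-predominant genes, *Cyp2c70* was below the limit and the others ranged from −0.12 in *Cyp2d9* to 0.36 in *Cyp4a12b*, which is not a member.

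The zonation of the liver lobule was read from 6 pericentral and 6 periportal markers. The pericentral list, in the zone where *Cyp2e1* and *Cyp1a2* are made, had 5 positive genes and a median log2 ratio of 0.32, with *Glul* at 0.45, and no gene past the limit. Its summed value per kilobase was 11185 in WT and 15177 in KO. The periportal list had a median of −0.01, and *Cyp2f2*, a periportal P450 that activates naphthalene, had a log2 ratio of −0.16. The part of zonation in the P450 values was not tested.

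Reads per library were recovered for 32 members, and 12 of them had a sum of normalized reads of at least 60. The genotypes overlapped in all 12, and among all 3797 genes of that level 3.16% had every KO library above every WT library and 2.42% had every one below. WT-A was the highest library for 5 of the 12, close to its share of 41.5% over all genes. Limma on log2(normalized reads + 1) covered 11 of them, with sums between 60 and 400. None had an unadjusted *p* under 0.05, against 63 of 3307 genes in all (1.91%), and every adjusted *p* was 0.999. After adjustment 1 gene of the 3307 passed, *Moap1* (0.0302%), and no member did. The difference was negative in 10 of the 11 members with a median of −0.35, and 56.6% of all genes were negative with a median of −0.07.

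*Cyp2j9* had normalized reads of 19.0, 10.6 and 15.8 in KO-A, KO-B and KO-C and of 61.2, 18.2 and 26.9 in WT-A, WT-B and WT-C. The WT value rested in large part on WT-A, and KO-A lay above WT-B. The mean was 15.2 ± 4.25 in KO and 35.4 ± 22.8 in WT (SD, n = 3 libraries; two-sided exact permutation test, *p* = 0.2), and the WT mean was 22.6 without WT-A. Limma gave a difference of −1.03 ± 0.518 on the log2 scale (SE), with an unadjusted *p* of 0.078 and an adjusted *p* of 0.999. The limma difference was −0.55 without WT-A. With 3 libraries per genotype, neither test separated the difference read from the genotype values from the spread between pools.

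*Cyp2c40* showed the same library at the top. It had 29.0, 39.6 and 20.3 normalized reads in KO-A, KO-B and KO-C and 92.3, 28.4 and 47.7 in WT-A, WT-B and WT-C. The means were 29.6 ± 9.65 in KO and 56.1 ± 32.7 in WT (SD, n = 3 libraries; two-sided exact permutation test, *p* = 0.3), and the WT mean was 38.1 without WT-A. *Cyp2c69* had 6.86, 12.6 and 6.77 in the KO libraries and 24.5, 7.96 and 14.7 in the WT libraries, again with overlap and with WT-A highest (exact permutation test, *p* = 0.2, n = 3 libraries each). The WT mean of *Cyp2c69* was 15.7 with WT-A and 11.3 without. *Cyp2c39*, another *Cyp2c* gene but with no stretch of 100 bases shared, had 17.5, 39.6 and 12.4 in KO and 40.8, 12.5 and 25.7 in WT. Its difference turned from −3.16 to 4.08 normalized reads when WT-A was left out.

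The other members with a sum of at least 60 covered vitamin D, cholesterol, leukotriene and skin lipid enzymes. *Cyp2r1*, the hepatic vitamin D hydroxylase, had 20.6, 15.4 and 21.5 normalized reads in KO-A, KO-B and KO-C and 30.2, 26.2 and 18.3 in WT-A, WT-B and WT-C. *Cyp4f16* had 50.3, 60.8 and 53.1 in KO and 68.6, 53.5 and 85.6 in WT. *Cyp4f18*, a leukotriene hydroxylase of white blood cells, had 5.33, 5.79 and 12.4 in KO and 7.35, 14.8 and 14.7 in WT. The KO mean was lower in all 3, with overlapping libraries and permutation *p* values of 0.3, 0.2 and 0.2 (exact, n = 3 libraries each). *Cyp46a1*, the cholesterol hydroxylase known from brain, ranged from 17.5 to 37.3 in KO and from 23.7 to 46.5 in WT. *Cyp2s1* ranged from 5.79 to 13.5 in KO and from 5.69 to 18.3 in WT, and *Cyp4f39*, a skin ceramide enzyme, from 3.05 to 15.8 and from 8.16 to 25.7. *Cyp2a22* ranged from 67.6 to 84.6 in KO and from 38.7 to 89.3 in WT. In these 4 genes leaving out a single library turned the direction.

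**Figure D4:**
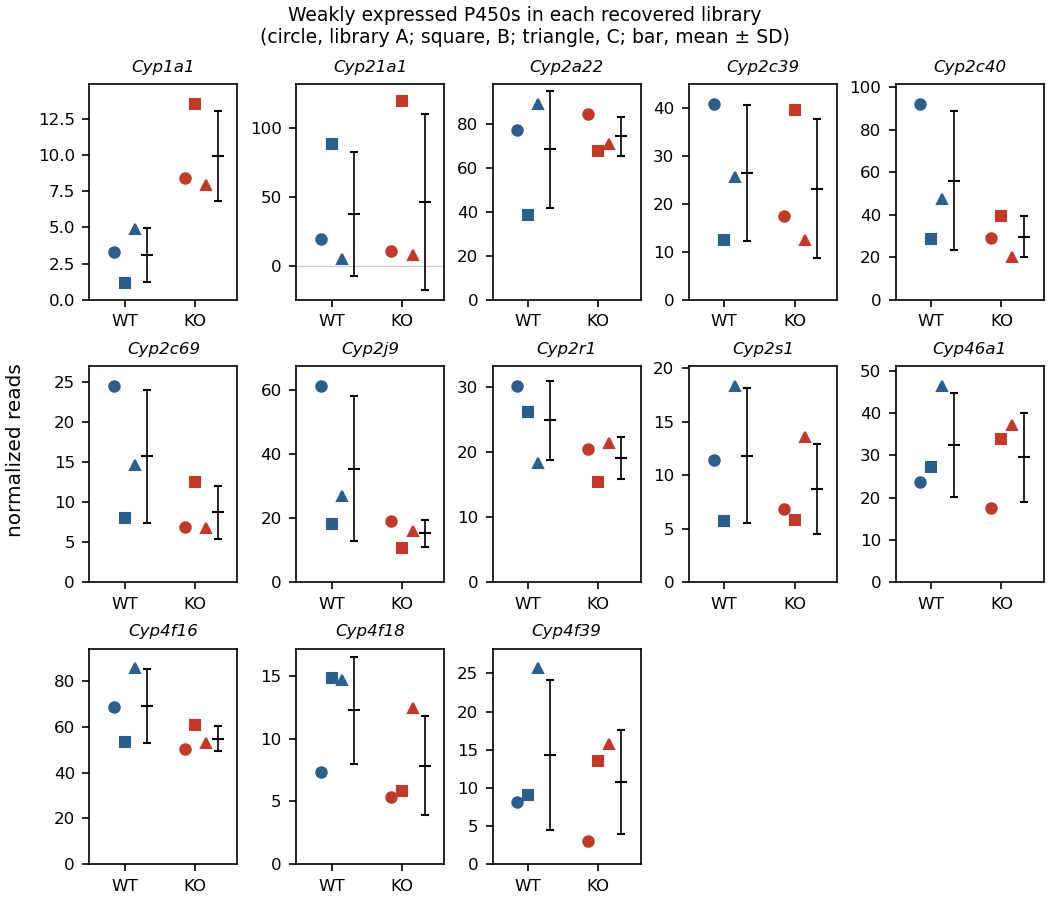
Normalized reads of *Cyp1a1* and of the 12 members with a recovered sum of at least 60 in each recovered library, WT in blue and KO in red (circle, library A; square, B; triangle, C), with the mean ± SD of 3 libraries beside the points. The genotypes overlap in every panel except *Cyp1a1*, and WT-A is the highest point of *Cyp2j9*, *Cyp2c40*, *Cyp2c69*, *Cyp2c39* and *Cyp2r1*.

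Steroidogenic P450s of the adrenal gland were read only or mostly in 2 libraries, 1 of each genotype. *Cyp11a1*, which starts steroid synthesis from cholesterol, had 37 reads in KO-B, 20 in WT-B and 0 in the other 4 libraries. *Cyp11b1*, the last enzyme of corticosterone synthesis, had 18 reads in KO-B, 22 in WT-B and 0 in the other 4. *Cyp11b2*, aldosterone synthase, had 3 reads, all in WT-B. *Cyp21a1*, the steroid hydroxylase between these steps, had 120 normalized reads in KO-B and 88.7 in WT-B, against 10.7 and 7.9 in KO-A and KO-C and 19.6 and 4.89 in WT-A and WT-C. The same 2 libraries held the highest reads of the other adrenal cortex markers, *Star*, *Hsd3b1* and *Nr5a1*, and *Hsd3b1* and *Nr5a1* had 0 reads elsewhere. Summed over the 6 adrenal markers, KO-B had 294 and WT-B 243 normalized reads, and the other 4 libraries had 6.11 to 22.9. Whether these reads came from adrenal tissue was not tested. The KO minus WT difference of *Cyp21a1* was 8.36 normalized reads with all libraries and −2.96 without KO-B and WT-B, a choice made after the data were seen. A similar genotype value of *Cyp21a1* in WT (40.5) and KO (43.3) therefore averages 2 libraries with many reads and 4 with few.

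**Figure D5:**
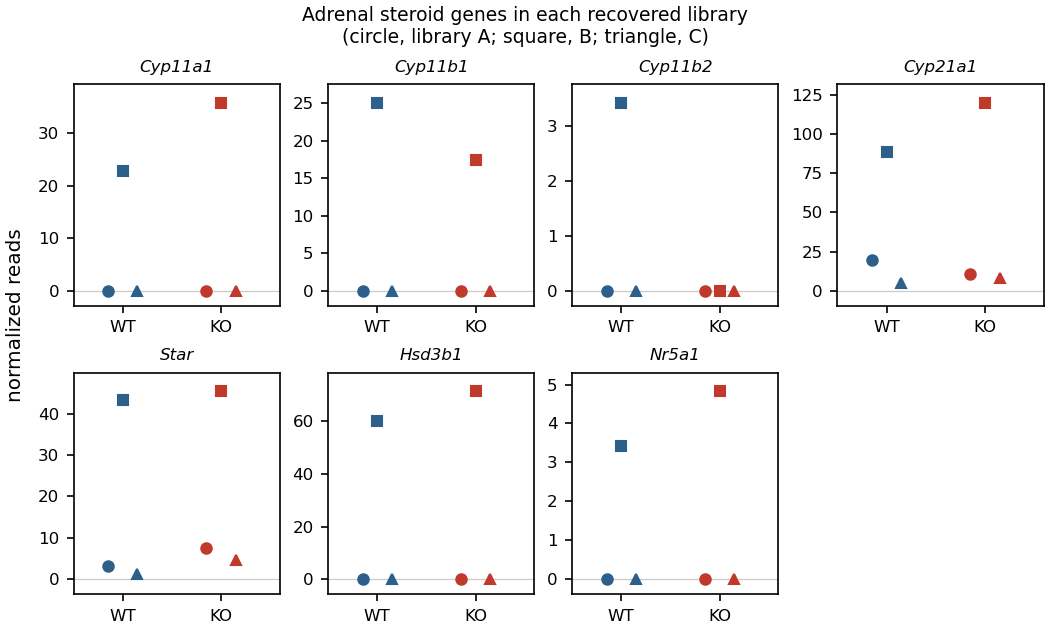
Normalized reads of 4 steroidogenic P450s and 3 other adrenal cortex genes in each recovered library, WT in blue and KO in red (circle, library A; square, B; triangle, C), with 1 panel per gene and its own axis from 0. In each panel the highest point is a square, KO-B or WT-B.

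The members whose mean value was under 10 carried little information. Of these 20, 9 had 3 reads or fewer over all 6 libraries and 8 had no read in 1 of the genotypes. *Cyp2g1*, an olfactory P450, had 3.05, 3.86 and 7.9 normalized reads in KO-A, KO-B and KO-C and 2.45, 11.4 and 20.8 in WT-A, WT-B and WT-C. *Cyp2d11*, a close copy of *Cyp2d10*, had 1.52, 1.93 and 6.77 in KO and 4.08, 2.27 and 22 in WT, and WT-C alone held most of its reads. Their log2 ratios of −0.65 and −0.67 went with overlapping libraries. *Cyp2b9* and *Cyp2a4*, both female-predominant, had between 0 and 6.76 normalized reads per library. *Cyp1b1*, an extrahepatic relative of *Cyp1a1*, ranged from 0 to 3.05 in KO and from 0 to 8.98 in WT.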

How the data were processed

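Liver RNA of 3 WT and 3 KO pools was sequenced from poly-A RNA. The submitters' processing notes name mm10, HISAT2, StringTie, Cufflinks, GATK, Bowtie2 and RSEM without roles. For 16123 genes the deposited table gives a signal for each genotype, made by the authors from reads divided by DESeq2 size factors and combined over 3 libraries, and the authors deposited the percent of mapped and of ribosomal reads per library. Per the labels, WT pools were numbered 1, 2 and 5 and KO pools 2, 3 and 4. The table also held the authors' log2 ratios, p-values and adjusted p-values, and splicing event counts were deposited by the authors apart from it. None of these was used.

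The planned count test was not possible with 1 value per genotype, so ratios were described. Genes with a single read over all 6 libraries took 6 recurring values. These, with the genotype that such genes favoured, gave size factors of 1.31, 1.04, 0.886 (KO), 1.22, 0.879 and 0.818 (WT), a 1.60-fold range. All sets of whole reads that give a gene's mean were enumerated up to a sum of 600, within 2.5 roundings of the deposited values (5 up to a sum of 200). A single set was left for 8060 of 8081 genes up to 400 (99.7%) and 490 of 979 above. Where several sets fitted a gene beyond a log2 ratio of 0.5, sets of the other direction were dropped, so its direction was fixed in advance. The direction was that of the genotype values in 1145 of 1145 genes beyond a log2 ratio of 0.5. This count includes such genes and is no check of the recovery for them. Between 84664 and 196802 reads per library were recovered, so low genes have a large counting error. Limma 3.58.1 in R 4.3.3 compared log2(normalized reads + 1) for sums of 60 to 400, with Benjamini-Hochberg adjustment, and two-sided exact permutation tests used Python 3.11.15. Positions and transcripts came from GENCODE M21 (GRCm38), and 1 member, *Cyp2d13*, was not found as a coding gene there.

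Named were members beyond a log2 ratio of 0.5 with a mean of at least 10, the 10 highest per kilobase, members with a sum of at least 60, partner genes past the limit, and examples of lists. Members and lists were chosen with earlier results of these data known.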

Additional observations from a re-analysis of the deposited data

How the results depend on the processing

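The counts of members past the log2 limit kept within 1.5 times of 3 above and 4 below with pseudocounts of 1 and 0.1, with centring and with no filter on level. With a mean value of at least 100, 1 member was below the limit, and with a log2 limit of 1 there were 0 above and 0 below. The count of members with an unadjusted limma *p* under 0.05 moved from 0 to 1 with sums between 20 and 400 and with no lower limit (*Cyp1a1*, 0.0182 and 0.0181), and to 1 with a model term marking KO-A and WT-A, which have the highest size factors (*Cyp2j9*, 0.0241). It was 0 to 1 when single libraries were left out (*Cyp2j9* without WT-B), and the count at an adjusted *p* under 0.05 was 0 in every alternative. Where a left-out library turned a direction, the limma differences ranged from −1.12 to 1.08 for *Cyp21a1*, −0.65 to 0.19 for *Cyp2c39*, −0.75 to 0.012 for *Cyp2s1*, −0.34 to 0.18 for *Cyp46a1* and −0.82 to 0.21 for *Cyp4f39*. The differences in normalized reads ranged from −28.4 to 33.9 for *Cyp21a1*, −8.99 to 16.3 for *Cyp2a22*, −11.4 to 4.08 for *Cyp2c39*, −6.15 to 0.17 for *Cyp2s1*, −7.36 to 4.04 for *Cyp46a1* and −6.60 to 2.16 for *Cyp4f39*. With library sizes from the recovered totals, the median limma difference of all genes moved from −0.07 to 0.06, and 10 of the 11 members were negative with either scaling. Without both KO-B and WT-B the differences in normalized reads were −2.96 for *Cyp21a1* and −5.56 for *Cyp2a22*. The median of the mitochondrial electron donors was 0.022 after centring, and that of the other aryl hydrocarbon receptor targets was 0.058 with no filter on level. The causes of these changes were not tested. The other 280 values stayed on their side of each limit or moved by less than the spread between libraries or, for counts, by less than 1.5 times.

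The abundant P450s have 1 value per genotype, with no test of their differences, and the recovered reads cover weakly expressed members only. No paired analysis was possible because the genotypes share fewer than 2 pool numbers and the values carry none.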
